A study of Mus musculus with 27 samples.

Results

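The genes described here are those that encode the histone variant H2A.Z (*H2afz* and *H2afv*), subunits of the SRCAP complex that places it in chromatin (*Srcap*, *Znhit1*, *Vps72* and *Actr6*), and the H2A.Z chaperone *Anp32e*. They were found by an exact match of these 7 symbols in the annotation column of the 3 deposited RNA-seq count tables. The symbols gave 8 gene identifiers of the 23494 listed in all 3 tables, because *Srcap* is carried by 2 of them, and all 8 passed the filter on low counts in every comparison. The cells were J1 mESCs, a mouse embryonic stem cell line, infected with lentivirus that expressed a control shRNA (shCon, 3 libraries), shGas41-1 (3 libraries) or shGas41-2 (2 libraries). They were selected with puromycin and harvested 8 days after infection. Both shGas41 constructs target *Gas41*, listed as *Yeats4*, in all infected cells. Control-shRNA cells were also sampled as undifferentiated mESCs with LIF (EB day 0, 2 libraries) and as embryoid bodies (EBs) after 6 days of differentiation (EB day 6, 2 libraries). All 5 groups therefore carried an shRNA vector, and no uninfected cells were among them. The study's methods state in general that experiments had biological repeats, but the labels do not tie the libraries of a group to separate cultures, so every p-value below measures the spread between these libraries.

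H2A.Z replaces the canonical histone H2A in a share of nucleosomes, above all around transcription start sites and enhancers. The SRCAP complex is an ATP-dependent remodeler that exchanges an H2A-H2B dimer for an H2A.Z-H2B dimer, and the related Tip60/p400 complex, with which it shares Gas41 and several other subunits, has a similar activity. ANP32E binds the H2A.Z-H2B dimer and can remove it from nucleosomes. In mESCs, H2A.Z is found at active promoters and at bivalent promoters of developmental genes.

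*H2afz* and *H2afv* encode almost the same protein from different codons. On the mm9 genome, *H2afz* (ENSMUSG00000037894) lies on the plus strand of chromosome 3 from 137527451 to 137529886, and *H2afv* (ENSMUSG00000041126) on the minus strand of chromosome 11 from 6327229 to 6344446. Their coding sequences have 387 bases each, stop codon included, of which 81 differ (79.1% identity). Of the 129 codons, 74 differ, but 71 of these keep the encoded residue and only 3 change it. The longest run of identical bases in the coding alignment is 14, so sequenced reads from the coding regions tell the genes apart. The 3 codons that change the residue are shown in capitals within 27 coding bases, read 5′ to 3′ from the mm9 transcripts and counted from 1 at the start codon, because they are the whole difference between the proteins whose mRNAs are measured below.
*H2afz*, codon 15: ggaaaggccaagACAaaggcggtttcc
*H2afv*, codon 15: gggaaggccaagGCTaaggcggtgtct
*H2afz*, codon 39: cgacacctgaaaTCTaggacaaccagc
*H2afv*, codon 39: agacacttgaagACTcgcaccacaagc
*H2afz*, codon 128: aagaaaggacaacagaagactGTTtaa
*H2afv*, codon 128: aagaaggggcagcagaaaactGCTtag
In *H2afz* these codons lie at chr3:137528136-137528138 (exon 2), chr3:137528517-137528519 (exon 3) and chr3:137529406-137529408 (exon 5). In *H2afv* they lie at chr11:6339415-6339417 (exon 2), chr11:6333805-6333807 (exon 3) and chr11:6328377-6328379 (exon 5). The windows around codons 15, 39 and 128 differ between the genes at 5, 8 and 6 bases.

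Copies elsewhere in the genome and overlapping genes limit 3 of these genes. Of the distinct stretches of 50 bases in the *H2afz* transcripts, 42.5% also occur outside the gene, in 6 places, and how reads from them were assigned is not given in the sources used here. In *Vps72* 4.46% of such stretches occur elsewhere, and in the other 6 identifiers 0% do. *Znhit1* shares 529 bases, 28.4% of its exon sequence, with *Plod3* on the opposite strand, and the TruSeq kit used does not mark strand. *Srcap* is split between a 5′ entry (ENSMUSG00000053877, chr7:134655541-134679890) and a 3′ entry (ENSMUSG00000090663, chr7:134702900-134708780), both on the plus strand and 23009 bases apart. The 2 entries are given separately below.

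The libraries held between 59224537 and 81524773 counts, and 3 counts, the least taken as measurable, correspond to between 0.0368 and 0.0507 CPM (counts relative to library size, here scaled by TMM factors over the 12 libraries). Each gene was measured with at least 763 counts in every library, which limits counting error only. The targeted gene *Yeats4* was at 61.2, 53.1 and 50.9 CPM in shCon, at 3.46, 4.38 and 5.10 CPM with shGas41-1 and at 8.81 and 7.95 CPM with shGas41-2, so every KD library lay below every shCon library. Both KD comparisons use the same 3 shCon libraries, whose counts are identical in both tables. The libraries differed in how short and long genes were represented. The median deviation of the shortest 25% of genes (up to 1582 exon bases) minus that of the longest 25% (4906 bases or more), each against the mean over 12 libraries, was 0.72 on the log2 scale in shGas41-1 replicate 3 and between -0.56 and 0.27 in the other 11. This short-minus-long measure was 0.27, 0.10 and -0.13 in shCon 1 to 3, 0.18 and 0.10 in shGas41-1 replicates 1 and 2, and 0.27 and 0.23 with shGas41-2. It was -0.32 and -0.24 at EB day 0 and -0.56 and -0.50 at EB day 6. Because shGas41-1 replicate 3 stands apart, results with shGas41-1 are given with and without it where it changes them.

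*H2afz* was by far the most abundant of these mRNAs per length. In shCon it was at 708 ± 58.1 CPM per kb of exon (SD, n = 3), against 52.2 ± 6.12 for *Anp32e* and 46.5 ± 4.01 for *H2afv* (SD, n = 3 each), the minor H2A.Z gene. The ranges of *Anp32e* (47.3 to 59.0) and *H2afv* (42.7 to 50.7) overlapped. The subunits of SRCAP were lower, with *Znhit1* at 15.9 ± 1.63, *Vps72* at 14.1 ± 0.425, the 3′ entry of *Srcap* at 11.9 ± 1.49 and *Actr6* at 9.73 ± 0.546 CPM per kb (SD, n = 3 each). The ranges of *Znhit1* and *Vps72* overlapped, while those of *Vps72*, the 3′ entry of *Srcap* and *Actr6* did not. The 5′ entry of *Srcap*, the catalytic ATPase, was at 4.56 ± 1.04 CPM per kb (SD, n = 3), and the 3′ entry was 2.61 times as high. *H2afz* was the highest of the 8 in each of the 5 groups, and *Anp32e* passed *H2afv* most clearly at EB day 6, with 89.9 ± 8.61 against 34.8 ± 3.88 CPM per kb (SD, n = 2 each). With shGas41-1 *Anp32e* lay below *H2afv* without overlap, at 31.8 ± 3.89 against 43.2 ± 7.43 CPM per kb (SD, n = 3 each). With shGas41-2 the 2 genes overlapped, at 42.6 ± 2.38 and 43.3 ± 0.140 CPM per kb (SD, n = 2 each). Over the 12 libraries the highest level was 3.48 times the lowest for *Anp32e*, 2.02 times for *H2afz*, 1.65 times for *H2afv* and 1.44 times for *Vps72*. These values use the exons of all transcripts of a gene. With the longest transcript instead, *H2afz* would be 1.66 times, *Vps72* 1.70 times and *Znhit1* 1.54 times as high, and *Anp32e* 1.09 times. The order of *Anp32e* and *H2afv* depends on this choice. With the longest transcript they would overlap with shGas41-1 (means of 34.7 and 43.3 CPM per kb). *Anp32e* would lie above *H2afv* without overlap in shCon (56.8 and 46.6) and with shGas41-2 (46.4 and 43.3).

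**Figure D1:**
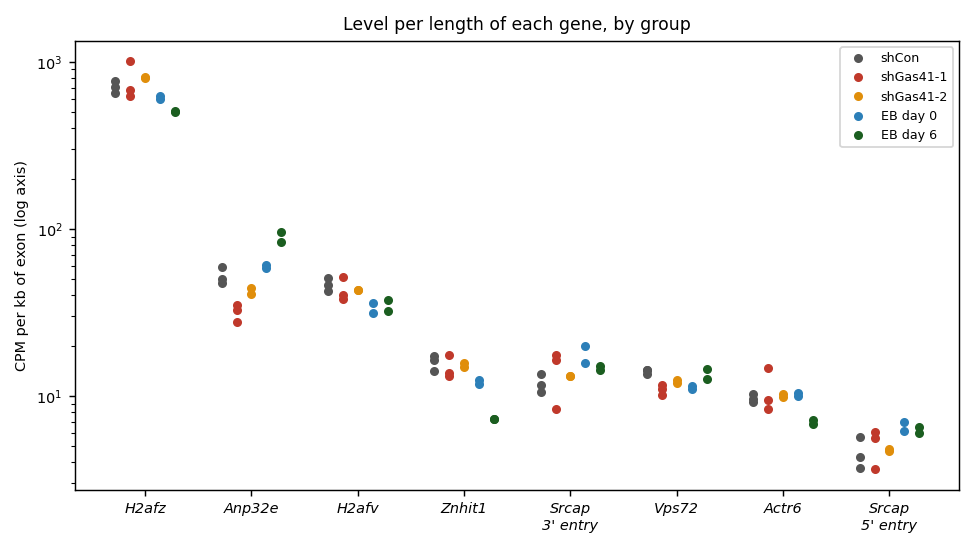
Level of each gene per length, in CPM per kb of exon on a log axis, with 1 point per library and colours for the 5 groups. *H2afz* lies between 499 and 1009 CPM per kb in all 12 libraries, above every other gene, and the 5′ entry of *Srcap* lies between 3.64 and 7.03.

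The first question was whether loss of Gas41, a subunit of SRCAP, went with a change in the mRNAs of H2A.Z itself. *H2afz*, the major H2A.Z gene, did not pass the main test with either shRNA. It was at 1360, 1261 and 1153 CPM in shCon, at 1208, 1114 and 1792 CPM with shGas41-1, and at 1429 and 1434 CPM with shGas41-2. The shGas41-2 libraries lay above all shCon libraries, whereas shGas41-1 overlapped them, with replicate 3 as the highest of the 12 libraries. In edgeR's quasi-likelihood test its log2 fold change was 0.14 with shGas41-1 (95% interval -0.29 to 0.58, adjusted p = 0.625) and 0.19 with shGas41-2 (-0.02 to 0.41, adjusted p = 0.224). Without shGas41-1 replicate 3 the value turned to -0.11 (adjusted p = 0.457, edgeR).

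*H2afv*, which encodes the other H2A.Z protein, was at 83.0, 75.7 and 69.9 CPM in shCon, at 65.9, 62.0 and 84.8 CPM with shGas41-1, and at 70.7 and 71.1 CPM with shGas41-2. These groups overlapped. Its log2 fold changes were -0.09 (95% interval -0.44 to 0.27, adjusted p = 0.735) with shGas41-1 and -0.10 (-0.34 to 0.14, adjusted p = 0.581) with shGas41-2 in edgeR's test. For both H2A.Z genes the intervals lie within a 2-fold change in either direction.

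In EBs *H2afz* fell. It was at 1063 and 1106 CPM at EB day 0 and at 887 and 896 CPM at EB day 6, or 0.81 times the day 0 level (log2 fold change -0.30, standard error 0.08, adjusted p = 0.0168, edgeR). Both day 6 libraries lay below both day 0 libraries. Leaving out any 1 of the 4 libraries gave between -0.34 and -0.28 with adjusted p between 0.0732 and 0.101, so that the call needs all 4. *H2afv* was at 51.5 and 58.8 CPM at EB day 0 and at 52.5 and 61.5 CPM at EB day 6, with a log2 fold change of 0.03 (95% interval -0.24 to 0.29, adjusted p = 0.857, edgeR). An EB is a mixture of differentiating cells, and in such bulk samples fewer cells of a type and less RNA per cell cannot be told apart.

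The count ratio of *H2afz* to *H2afv* within a library needs no scaling between libraries. It was 16.4, 16.7 and 16.5 in shCon, 18.4, 18.0 and 21.1 with shGas41-1 and 20.2 and 20.2 with shGas41-2, so that all 5 KD libraries lay above all 3 shCon libraries. The mean was 16.5 ± 0.143 (SD, n = 3) in shCon, 19.2 ± 1.73 (SD, n = 3) with shGas41-1 and 20.2 ± 0.0184 (SD, n = 2) with shGas41-2. The ratio was 1.16 times the shCon ratio with shGas41-1 and 1.22 times with shGas41-2, and the two-sided exact permutation test gave p = 0.1 for each, the smallest that either design can give. At EB day 0 the ratio was 20.6 and 18.8, and at EB day 6 16.9 and 14.6, without overlap (exact permutation p = 0.333, the smallest that 2 against 2 can give). The undifferentiated control cells of EB day 0 thus had ratios as high as the KD libraries. Over the 3 ratio tests, no adjustment can bring a p below the unadjusted one, so none passes a threshold of 0.05.

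**Figure D2:**
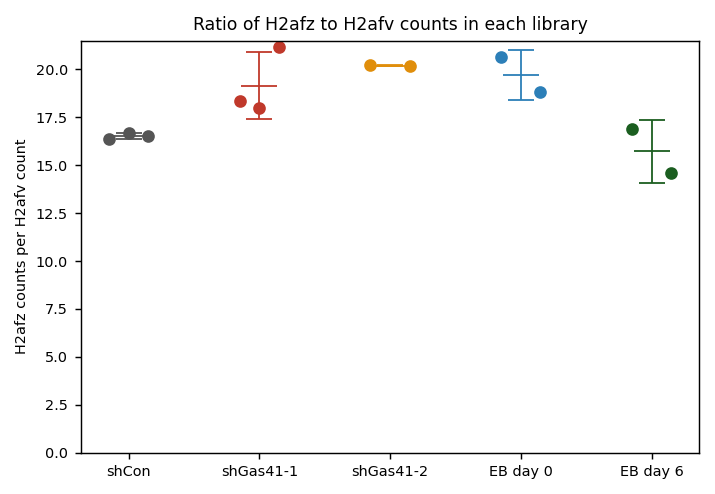
Counts of *H2afz* per count of *H2afv* in each of the 12 libraries, with group means and SD bars. The 5 KD libraries lie between 18.0 and 21.1, above the 3 shCon libraries (16.4 to 16.7), and the EB day 0 libraries lie at 18.8 and 20.6.

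*Srcap*, the ATPase that drives the exchange, did not pass the main test in any comparison. The 5′ entry was at 18.1, 21.1 and 28.1 CPM in shCon, at 27.5, 29.8 and 17.9 CPM with shGas41-1, and at 23.5 and 23.0 CPM with shGas41-2. The 3′ entry was at 32.2, 35.8 and 41.2 CPM in shCon, at 49.9, 53.8 and 25.4 CPM with shGas41-1, and at 40.4 and 40.1 CPM with shGas41-2. In both entries shGas41-1 replicate 3 was the lowest of the 12 libraries, while replicates 1 and 2 lay in or above the upper part of the shCon range. The log2 fold changes with shGas41-1 were 0.18 for the 5′ entry and 0.26 for the 3′ entry (adjusted p = 0.59 and 0.5, edgeR). Without replicate 3 the 3′ entry was higher, by 0.52 (adjusted p = 0.0265). With shGas41-2 they were 0.06 and 0.15 (adjusted p = 0.858 and 0.461, edgeR). From EB day 0 to day 6 the 5′ entry went from 34.6 and 30.3 to 32.2 and 29.6 CPM, with overlap, and the 3′ entry from 60.9 and 48.4 to 46.0 and 43.6 CPM, without overlap. These were log2 fold changes of -0.09 (adjusted p = 0.495) and -0.31 (adjusted p = 0.0691) in edgeR's test. The 3′ entry passed in EBs with DESeq2 (-0.32, adjusted p = 0.0178), with library totals alone (-0.39, adjusted p = 0.0337, edgeR) and without EB day 6 replicate 2 (-0.35, adjusted p = 0.0236, edgeR). Both entries summed, an alternative added once the counts had been examined, gave 0.23, 0.12 and -0.22 in the 3 comparisons, with adjusted p from edgeR of 0.52, 0.622 and 0.127.

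*Znhit1*, a zinc finger subunit of SRCAP, fell in EBs and did not pass the test in the KDs. It was at 21.8 and 23.0 CPM at EB day 0 and at 13.6 and 13.5 CPM at EB day 6, 0.60 of the day 0 level (log2 fold change -0.75, standard error 0.11, adjusted p = 0.00129, edgeR). This was the largest fall among the 8 identifiers, and the call held in all 10 alternative fits of this comparison. In shCon *Znhit1* was at 32.2, 30.4 and 26.2 CPM, with shGas41-1 at 24.6, 25.5 and 32.9 CPM, and with shGas41-2 at 27.8 and 29.2 CPM. The KD log2 fold changes were -0.08 (95% interval -0.45 to 0.29) and -0.05 (-0.33 to 0.23), with adjusted p of 0.768 and 0.831 in edgeR's test.

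*Actr6*, an actin-related subunit that takes part in H2A.Z exchange, likewise fell in EBs. Its level was 17.0 and 17.7 CPM at EB day 0 and 11.5 and 12.2 CPM at EB day 6, or 0.67 of the day 0 level (log2 fold change -0.57, standard error 0.12, adjusted p = 0.00581, edgeR). The call was lost without EB day 0 replicate 3 (log2 fold change -0.54, adjusted p = 0.0717). In mESCs it was at 17.5, 16.4 and 15.7 CPM in shCon, at 16.1, 14.3 and 25.1 CPM with shGas41-1 and at 17.5 and 16.7 CPM with shGas41-2. The value in shGas41-1 replicate 3 was the highest of all libraries. The KD log2 fold changes were 0.18 (95% interval -0.31 to 0.67, adjusted p = 0.581) and 0.06 (-0.20 to 0.31, adjusted p = 0.78) in edgeR's test, and without shGas41-1 replicate 3 the first was -0.12 (adjusted p = 0.525).

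*Vps72*, the subunit that binds the H2A.Z-H2B dimer and that Tip60/p400 also contains, was the steadiest of the SRCAP genes. It was at 51.8, 52.4 and 49.4 CPM in shCon, at 39.9, 36.7 and 42.5 CPM with shGas41-1 and at 45.2 and 43.2 CPM with shGas41-2. All 5 KD libraries lay below all 3 shCon libraries. The log2 fold change was -0.35 with shGas41-1 (95% interval -0.62 to -0.07, unadjusted p = 0.0195, adjusted p = 0.0792, edgeR) and -0.21 with shGas41-2 (-0.43 to 0.02, adjusted p = 0.204), so neither passed the main test. Without shGas41-1 replicate 3 the first was -0.41 and passed (adjusted p = 0.0273, edgeR). DESeq2 called *Vps72* lower with both shRNAs (-0.36 and -0.20, adjusted p = 0.00302 and 0.0376). So did edgeR with library totals alone for shGas41-1 (-0.43, adjusted p = 0.0358) and with a term for the replicate number for shGas41-2 (-0.23, adjusted p = 0.00289). No other alternative fit of these comparisons passed. In EBs *Vps72* rose from 39.8 and 41.5 to 46.2 and 53.0 CPM (log2 fold change 0.27, standard error 0.09, adjusted p = 0.0481, edgeR), a call that held in 3 of 10 alternative fits. Against shCon, which like EB day 0 holds undifferentiated control cells, EB day 0 had a log2 fold change of -0.33 that did not pass (unadjusted p = 0.011, adjusted p = 0.165, edgeR). The 2 EB day 6 libraries lay on either side of the shCon range.

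*Anp32e*, the chaperone that removes H2A.Z, fell with shGas41-1 and rose in EBs, and of the 8 identifiers its level varied most over the 12 libraries. It was at 169, 179 and 211 CPM in shCon, at 117, 125 and 98.3 CPM with shGas41-1 and at 146 and 158 CPM with shGas41-2. All KD libraries lay below all shCon libraries, those of shGas41-1 furthest. With shGas41-1 it fell to 0.62 of the shCon level (log2 fold change -0.69, standard error 0.14, 95% interval -1.01 to -0.37, adjusted p = 0.0121, edgeR). With shGas41-2 the log2 fold change was -0.29 (-0.55 to -0.02, unadjusted p = 0.0373, adjusted p = 0.149, edgeR) and did not pass. The shGas41-1 call is close to the threshold when libraries are left out. It gave -0.72 without shCon replicate 2 (adjusted p = 0.0506), -0.61 without shCon replicate 3 (0.0523) and -0.71 without shGas41-1 replicate 1 (0.0512), and it held without shGas41-1 replicate 3. With a term for the replicate number in the edgeR fit, *Anp32e* had -0.69 with shGas41-1 and did not pass (adjusted p = 0.069). With shGas41-2 that fit gave -0.19 and passed (adjusted p = 0.00351). In EBs *Anp32e* rose from 208 and 216 CPM at day 0 to 299 and 342 CPM at day 6, or 1.49-fold (log2 fold change 0.57, standard error 0.09, adjusted p = 0.00209, edgeR). This call was lost only without EB day 0 replicate 3 (0.60, adjusted p = 0.0597) among 10 alternative fits.

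**Figure D3:**
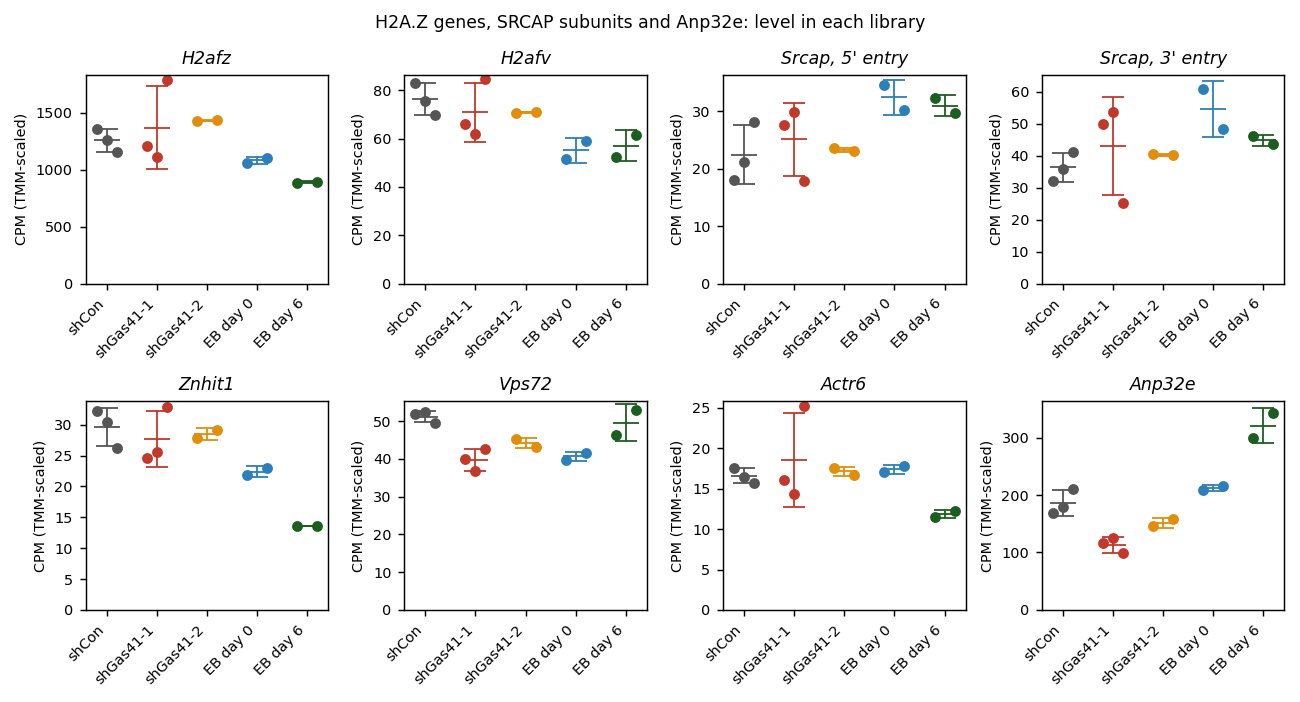
Level of each of the 8 identifiers in CPM (linear axes from 0) in the 12 libraries, with group means and SD bars. *Anp32e* is lowest with shGas41-1 (98.3 to 125 CPM) and highest at EB day 6 (299 and 342 CPM), and *Znhit1* is lowest at EB day 6 (13.5 and 13.6 CPM).

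Counted over the 8 identifiers, 1 was called lower (*Anp32e*) and 0 higher with shGas41-1 at an adjusted p of 0.05 or less, where 7.73% of all 18274 genes tested were called lower and 10.8% higher. DESeq2 called 0 higher and 2 lower (*Anp32e* and *Vps72*), where it called 3110 of all genes higher and 2905 lower, more than edgeR did. In edgeR 2 of the 8 had an unadjusted p under 0.05 (35% of all genes did). With shGas41-2 none was called in either direction by edgeR (3.97% of 18405 genes were called lower and 5.94% higher). There 1 of the 8 had an unadjusted p under 0.05 (28.3% of all genes did). DESeq2 called 1 (*Vps72*, lower), where it called 2281 of all genes higher and 2126 lower. With a term for the replicate number in the edgeR fit, 3 of the 8 were called higher and 3 lower with shGas41-2, where 3536 and 3630 of all genes were. In EBs 2 were called higher (*Anp32e* and *Vps72*) and 3 lower (*H2afz*, *Znhit1* and *Actr6*), where 30.5% of 18287 genes were called higher and 28.4% lower. The counts of the main edgeR fits do not stand out from the shares over all genes. No identifier reached a 2-fold change in any of the 3 comparisons. The median log2 fold change of the 8 was 0.03, 0.00 and -0.20 with shGas41-1, with shGas41-2 and in EBs, beside 0.02, -0.01 and 0.00 over all genes tested. The groups did not overlap for 2 lower and 0 higher identifiers with shGas41-1, where 20.8% of genes lay all lower and 20.9% all higher. They did not overlap for 2 lower and 1 higher with shGas41-2 (24.1% and 23.2%), and for 4 lower and 2 higher in EBs (40.1% and 42.4%).

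**Figure D4:**
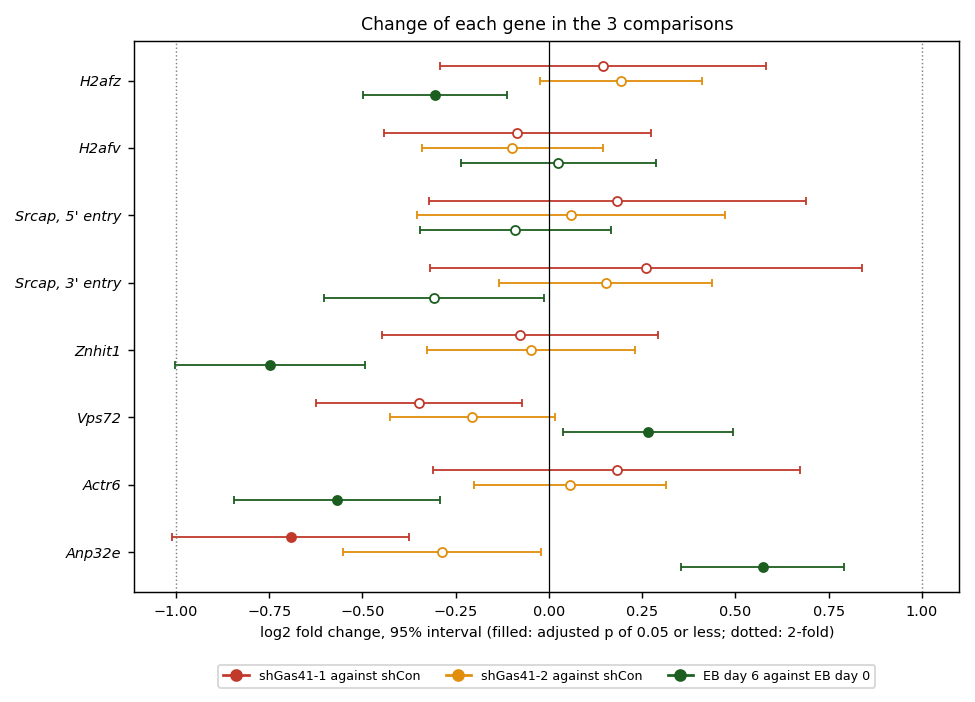
Log2 fold change of each identifier with its 95% interval in the 3 comparisons, filled where the adjusted p is 0.05 or less, with dotted lines at 2-fold. Filled points are *Anp32e* with shGas41-1 (-0.69) and, in EBs, *H2afz*, *Znhit1*, *Actr6*, *Vps72* and *Anp32e*.

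The 2 shRNAs were compared directly over 8 libraries. No identifier differed between shGas41-1 and shGas41-2 at an adjusted p of 0.05 or less, and neither did any of 19146 genes (0%), of which 1348 (7.04%) had an unadjusted p under 0.05, as did 1 of the 8 identifiers. DESeq2 also called none of the 8. *Anp32e* came nearest, 0.40 lower on the log2 scale with shGas41-1 (log2 fold change -0.40, 95% interval -0.72 to -0.09, unadjusted p = 0.0178, adjusted p = 0.59, edgeR). For the other 7, the differences lay between -0.14 and 0.13. Intervals were widest for the 3′ entry of *Srcap* (-0.49 to 0.71) and *Actr6* (-0.37 to 0.63).

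The KD effect was then set against the EB effect in 1 fit over 12 libraries, which tests whether a gene changed differently in the KD than during differentiation. For *Anp32e* the shGas41-1 effect was lower than the EB effect by 1.31 on the log2 scale (difference -1.31, standard error 0.19, adjusted p = 0.000168, edgeR) and the shGas41-2 effect by 0.89 (difference -0.89, standard error 0.20, adjusted p = 0.00354). For *Vps72* the differences were -0.65 (standard error 0.16, adjusted p = 0.00474) and -0.50 (standard error 0.16, adjusted p = 0.0278). *Znhit1* differed the other way, by 0.63 (standard error 0.20, adjusted p = 0.0244) and 0.67 (standard error 0.21, adjusted p = 0.0238), since it fell in EBs and its KD values lay near 0. The other 5 identifiers passed with neither shRNA, and *Actr6* was nearest (0.71, adjusted p = 0.0563, with shGas41-1). In this fit 45.1% of all 19613 genes passed with shGas41-1 and 41.6% with shGas41-2, so 3 of 8 is no more than the share over all genes. The differences with the 2 shRNAs share the shCon and EB libraries.

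The undifferentiated control cells of the KD experiment (shCon) and of the EB experiment (EB day 0) were also compared, since they carry the same control shRNA. No identifier passed at an adjusted p of 0.05 or less in edgeR's test, where 0.387% of 19613 genes did, but 5 of 8 had an unadjusted p under 0.05, beside 17.9% of all genes. These were *H2afv* (log2 fold change -0.47), *Znhit1* (-0.40) and *Vps72* (-0.33), with negative values for EB day 0 against shCon, and the 5′ and 3′ entries of *Srcap* (0.53 and 0.59). DESeq2 called 3 of them (*H2afv*, *Znhit1* and *Vps72*). The edgeR result also depends on shGas41-1 replicate 3, which is in neither group but enters the spread estimate of this fit. Without that library, *H2afv* (adjusted p = 0.0271), *Znhit1* (0.0389), *Vps72* (0.045) and the 3′ entry of *Srcap* (0.0221) passed in edgeR's test. Their log2 fold changes were the same to 2 decimals, and the 5′ entry of *Srcap* did not pass (0.0559). The share of all genes called was not recorded for DESeq2 or for the fit without that library. The 0.387% belongs to the main fit, so these calls cannot be set against it. The short-minus-long measure was also lower at EB day 0 (-0.32 and -0.24) than in shCon (-0.13 to 0.27), and its part in these differences was not tested.

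Within shCon and within shGas41-1, several of the genes followed that measure from library to library. Of the 3 shCon libraries, replicate 3 had the lowest short-minus-long measure, the lowest *H2afz*, *H2afv*, *Znhit1* and *Actr6* and the highest *Srcap* and *Anp32e*, and replicate 1 had the reverse, with the exception that *Vps72* was highest in replicate 2. In shGas41-1 replicate 3, *Actr6* lay 0.49 and *H2afz* 0.42 above the mean of the group on the log2 scale, and the 3′ entry of *Srcap* lay 0.69 below it. With the length trend of each library taken out by an offset, likewise an added alternative, the log2 fold changes of *Anp32e* were -0.64 with shGas41-1 (adjusted p = 0.00899) and 0.57 in EBs (adjusted p = 0.00203, edgeR). In EBs, *H2afz* had -0.22 (adjusted p = 0.0471), *Znhit1* -0.67 (0.0017) and *Actr6* -0.48 (0.0101), and *Vps72* no longer passed (0.25, adjusted p = 0.0568).

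**Figure D5:**
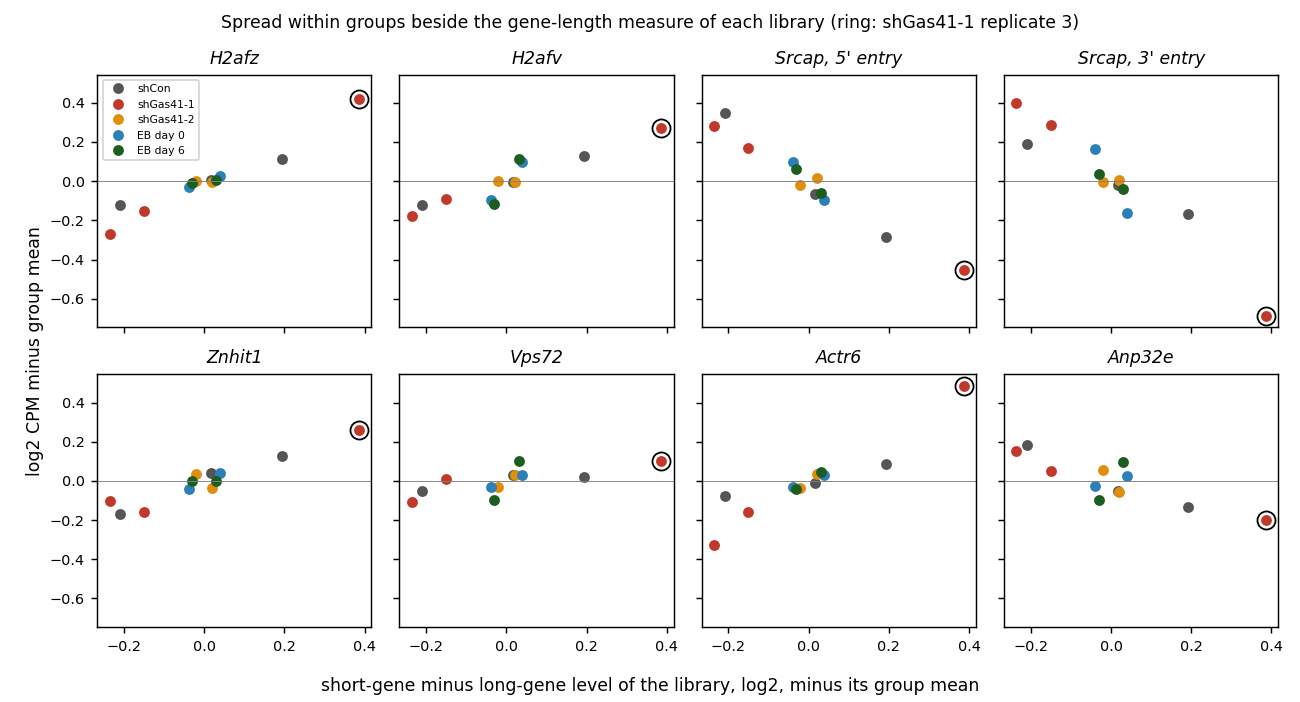
Log2 CPM of each identifier against the short-minus-long measure of the library, both as deviations from the group mean, for 12 libraries in 5 colours. In shCon and shGas41-1, *H2afz*, *H2afv*, *Znhit1* and *Actr6* lie higher and both *Srcap* entries lower where the measure is high. With shGas41-2, whose libraries differ little in the measure (0.0207 and -0.0207), these genes except *Actr6* go slightly the other way, as does *Znhit1* at EB day 6. The ringed library, shGas41-1 replicate 3, lies farthest to the right.

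Other genes of H2A.Z exchange were read from fixed lists, whose counts stand beside the shares of all genes called higher and lower, 10.8% and 7.73% with shGas41-1, 5.94% and 3.97% with shGas41-2, and 30.5% and 28.4% in EBs. The list of subunits that SRCAP shares with Tip60/p400 held 5 genes, without *Vps72*, which is described above. Of these 5, 3 were lower with shGas41-1 (*Yeats4* itself, *Dmap1* with a log2 fold change of -0.54, adjusted p = 0.0206, and *Ruvbl1*, an AAA+ ATPase, with -0.39, adjusted p = 0.0487, edgeR). Only *Yeats4* was lower with shGas41-2. In EBs 2 of the 5 were lower, *Ruvbl2* (-0.45, adjusted p = 0.00438) and *Dmap1* (-0.44, adjusted p = 0.0072). *Dmap1*, at 33.8 to 37.4 CPM in shCon, was at 22.3 to 26.7 CPM with shGas41-1 and at 24.9 to 27.3 CPM at EB day 6. The median log2 fold change of this list, with *Yeats4* included, was -0.39, -0.08 and -0.14 in the 3 comparisons, beside 0.02, -0.01 and 0.00 over all genes. The fall of *Yeats4* was set by the shRNAs, so the KD counts and medians of this list do not describe the other subunits alone.

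Of 11 Tip60/p400 subunits tested, 1 was higher and 2 lower with shGas41-1, 1 higher and 1 lower with shGas41-2, and 2 higher and 3 lower in EBs, where the 5 called are a smaller share than that of all genes. *Epc1*, a scaffold subunit, rose with both shRNAs (log2 fold changes 0.61 and 0.51, adjusted p = 0.0238 and 0.0404, edgeR), and *Kat5*, the Tip60 acetyltransferase, fell with both (-0.56 and -0.45, adjusted p = 0.0175 and 0.0401). *Kat5* was at 26.3 to 29.2 CPM in shCon and at 17.7 to 20.8 CPM over the 5 KD libraries. In EBs the largest change was that of *Ing3*, a subunit with a PHD finger, from 35.3 and 35.4 to 19.4 and 19.7 CPM (log2 fold change -0.87, adjusted p = 0.000307, edgeR). Of 12 genes of the INO80 complex, another remodeler of this family, 0 were higher and 3 lower with shGas41-1 (*Actr8*, *Actr5* and *Mcrs1*, between -0.53 and -0.49), 1 higher and 1 lower with shGas41-2 (*Nfrkb* 0.37, *Mcrs1* -0.40), and 2 higher and 4 lower in EBs.

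Of 6 other H2A chaperones and H2A.Z readers tested, 0 passed with either shRNA, and 3 rose in EBs, *Pwwp2b* (log2 fold change 0.74, adjusted p = 0.00566), *Nap1l1* (0.37, adjusted p = 0.0153) and *Ssrp1* (0.29, adjusted p = 0.0174, edgeR). Among 9 other replication-independent histone genes, 0 were higher with either shRNA, 3 were lower with shGas41-1 and 2 with shGas41-2. These include both macroH2A genes. *H2afy2*, which encodes macroH2A2, was at 34.7 to 46.6 CPM in shCon, at 9.34 to 12.7 CPM with shGas41-1 and at 16.3 to 20.3 CPM with shGas41-2 (log2 fold changes -1.88 and -1.16, adjusted p = 0.00184 and 0.00646, edgeR). *H2afy*, which encodes macroH2A1, had log2 fold changes of -0.79 and -0.71 (adjusted p = 0.0155 and 0.0394, edgeR). In EBs *H2afj* fell (-1.07, adjusted p = 0.000228), as did *H2afx* (-0.31, adjusted p = 0.0197), and *H1f0* (0.93, adjusted p = 0.00608) and *H3f3a* (0.65, adjusted p = 0.00361, edgeR) rose.

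The groups carried the markers of their labels. All 8 markers of undifferentiated ESCs were lower at EB day 6 than at EB day 0, with a summed level of 1384 and 1770 against 5375 and 5865 CPM, and 8 of 9 markers of differentiating EBs were higher, with 1521 and 2103 against 11.1 and 13.4 CPM. With shGas41-1, 3 of the 8 ESC markers were lower and 0 higher. Their summed level was 5578 and 5486 CPM in replicates 1 and 2, below all shCon libraries (6046 to 6454 CPM). In replicate 3 it was 6780 CPM, above them, so the overlap with shCon came from that library. With shGas41-2, 1 of the 8 was lower and 0 higher, and the summed level was 6320 and 6322 CPM. Of the 9 markers of differentiating EBs, 2 were higher with shGas41-1, *Pax6* (log2 fold change 2.43, adjusted p = 0.00451) and *Fgf5* (2.08, adjusted p = 0.0388), and *Eomes* was lower (-1.0, adjusted p = 0.0343, edgeR). Their summed level was 18.8 to 23.3 CPM with shGas41-1 against 13.8 to 15.8 CPM in shCon, without overlap, and 14.6 to 14.8 CPM with shGas41-2. The higher sum with shGas41-1 came with *Pax6*, at 9.99 to 13.3 CPM against 1.23 to 3.61 CPM in shCon. *Eomes* was at 2.88 to 5.21 CPM against 6.49 to 11.3 CPM. *Pax6* was also the marker that did not pass in EBs (log2 fold change 0.03, adjusted p = 0.953, edgeR), so the sum does not show a rise of these markers as a whole. Of the cell cycle genes, 5 of 15 were lower in EBs and 0 higher, beside 28.4% of all genes lower, and their summed level was 4082 and 4102 CPM against 4233 and 4323 CPM at day 0. With shGas41-1, 1 of the 15 was lower (*Rrm2*, -0.51, adjusted p = 0.0176, edgeR), and their summed level was 4074 to 4208 CPM against 4540 to 4580 CPM in shCon, likewise without overlap. With shGas41-2 it was 4466 to 4469 CPM, also below all shCon libraries. Fibroblast markers were low, and the mESCs had been kept without feeder cells. The 4 of them listed in all tables summed to 24.9 and 30.9 CPM at EB day 6, against 10.3 to 13.8 CPM at EB day 0, and none was at 0 in any library. With shGas41-1 they summed to 6.69 to 10.7 CPM, against 10.7 to 19.4 CPM in shCon, and *Thy1* was lower (log2 fold change -1.10, adjusted p = 0.0109, edgeR). The part of differentiation, cell cycle or other cell types in the KD and EB values was not tested.

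The genes most like each member were found by the root mean square difference of log2 CPM, each centred on its mean over the 12 libraries, among 15094 others. For *H2afz* these were *Timm8a1*, *Prmt7* and *Psmd4* (differences of 0.0573 to 0.0629 log2 units, while *H2afz* itself varied by 0.278 around its mean). For *H2afv* they were *Cd151*, *Pebp1* and *Psmb5*. Both entries of *Srcap* were most like *Ep400* (0.0823 and 0.102), the ATPase of the Tip60/p400 complex, followed by *Dock9* and *Fbrs* for the 5′ entry and *Dopey2* and *Spna2* for the 3′ entry. *Znhit1* was most like *Hagh*, *Mrpl19* and *Gpank1*, *Vps72* most like *Pdap1*, *Cdc37* and *Pmf1*, and *Actr6* most like *Yme1l1*, *Tcea1* and *Fbxl5*. *Anp32e* was most like *Ryk*, *Golph3* and *Acbd3* (0.0826 to 0.103, while it varied by 0.509). Among the 8 identifiers themselves, the pairs closest to each other were *H2afz* with *Actr6* (0.130) and the entries of *Srcap* (0.133), ahead of *H2afz* with *H2afv* (0.158). All these likenesses are descriptions over libraries that share depth and the length trend above.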

How the data were processed

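The authors sequenced TruSeq RNA libraries of J1 mESCs, mapped the reads to mm9 with TopHat2 (2.0.10, per the submitters' processing notes), counted them per gene with HTSeq and deposited raw read counts in 3 tables. The tables also hold the authors' own edgeR log2 fold changes, p-values and FDR, which were not used. ChIP-seq was not analysed here. The 8 members and the lists of other genes were chosen with earlier results of these data known. Columns named ESC were read as EB day 0 from the labels.

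The deposited counts were tested in R 4.3.3 with edgeR 4.0.16 on all genes (filterByExpr, minimum count 10 and total 15, TMM, quasi-likelihood test, Benjamini-Hochberg adjustment), and a gene was called at an adjusted p of 0.05 or less. Intervals are 95%. Genes without a call are given with values only. DESeq2 1.42.0 served as an alternative. Exon lengths and sequences came from GENCODE M1 on mm9, the build of the files. The genes named are the members, *Yeats4*, up to 4 genes of each list and comparison with the largest changes among those called, and the 3 genes most like each member without Gm or Rik names. The test was checked on simulated data. The alternatives tried were other scaling, no count filter, DESeq2, a replicate block, each library left out, the 2-fold rule, other length definitions and, added later, summed *Srcap* entries and a length offset.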

Additional observations from a re-analysis of the deposited data

Results flagged for a closer look

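Differences between the KD effect and the EB effect passed the test, at an adjusted p of 0.05 or less in edgeR's quasi-likelihood fit over 12 libraries, for *Anp32e*, *Vps72* and *Znhit1* with each shRNA. For *Anp32e* the KD log2 fold change minus the EB log2 fold change was -1.31 with shGas41-1 and -0.89 with shGas41-2, and both passed in all 15 alternative fits. For *Vps72* the differences were -0.65 with shGas41-1, which passed in all 15 alternative fits, and -0.50 with shGas41-2, which passed in 8 of 15. For *Znhit1* they were 0.63 and 0.67, which passed in 10 and 9 of 15. In the main fit, 45.1% of all 19613 genes passed with shGas41-1 and 41.6% with shGas41-2. Passing this test therefore does not set *Anp32e*, *Vps72* and *Znhit1* apart from genes in general. The causes of the differences between the KD and EB effects were not tested. No group held enough libraries to test a single library for standing apart.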

How the results depend on the processing

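Each gene had at least 763 counts in every library, so counting error was small, and the number of libraries limits the precision. With 2 or 3 libraries in a group, 1 library decided several calls, and where a left-out library leaves 1 in a group, that library was assumed to vary like the others. Of 726 repeats of a log2 fold change under an alternative setting, 635 kept their direction and their side of the threshold, 35 lost a call, 31 gained one and 25 changed direction, of which 0 had an adjusted p of 0.05 or less in either fit (edgeR or DESeq2). The causes of the changes below were not tested.

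Among the 8 identifiers, with shGas41-1 1 was called lower, and 0 under the 2-fold rule, 2 with library totals alone, 2 with DESeq2 and 0 with the replicate block (*Anp32e* -0.69, adjusted p = 0.069), while leaving out 1 library gave 0 to 2 lower and 0 to 1 higher. With shGas41-2 0 were called, 1 lower with DESeq2, 3 higher (*H2afz* and both entries of *Srcap*) and 3 lower (*H2afv*, *Vps72* and *Anp32e*) with the replicate block, and 0 to 1 lower without 1 library (1 without shCon replicate 1, *Anp32e*). In EBs 2 were called higher, but 1 with median-of-ratios size factors, 1 with library totals alone, 1 without the count filter, 1 with the length offset and 0 under the 2-fold rule. The 3 lower were 0 under the 2-fold rule, and 4 with library totals alone, DESeq2 or the replicate block, where the 3′ entry of *Srcap* also passed. Without 1 library the EB counts ranged from 0 to 2 higher and from 1 to 3 lower, the fewest without EB day 0 replicate 3.

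With library totals alone, log2 fold changes turned to -0.020 for the 5′ entry of *Srcap* and -0.024 for *Actr6* with shGas41-2, and to -0.060 for *H2afv* in EBs. Leaving out 1 library gave, with shGas41-1, -0.11 to 0.28 for *H2afz*, -0.25 to 0.012 for *H2afv*, -0.23 to 0.0056 for *Znhit1* and -0.12 to 0.35 for *Actr6*. With shGas41-2 it gave -0.066 to 0.26 for the 5′ entry of *Srcap* and -0.13 to 0.023 for *Znhit1*, and in EBs -0.081 to 0.13 for *H2afv* and -0.18 to 0.0046 for the 5′ entry of *Srcap*. For shGas41-1 against shGas41-2 the ranges were -0.29 to 0.093 for *H2afz*, -0.14 to 0.11 for *H2afv*, -0.013 to 0.31 and -0.079 to 0.38 for the 5′ and 3′ entries of *Srcap*, -0.17 to 0.060 for *Znhit1* and -0.16 to 0.29 for *Actr6*. There *H2afv* was -0.0023 with DESeq2 and -0.031 with the replicate block, and *Actr6* was -0.010 with the block.

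Replicate numbers are shared by the groups, and their deviations from the group means correlated at -0.27, 0.19 and -0.73 for shGas41-1, at 0.58 and 0.57 for shGas41-2 and at 0.14 in EBs. In a group of 2 libraries the deviations mirror each other, so the values of such a comparison are not separate. The labels do not say that equal numbers mark pairs, and the main fits took none, although both shGas41-2 values were positive. The block moved the genes called from 1971 higher and 1412 lower to 1107 and 442 with shGas41-1, and from 1094 and 730 to 3536 and 3630 with shGas41-2. DESeq2 called 3110 and 2905, and 2281 and 2126. With library totals alone, shGas41-2 had 961 higher and 1289 lower. The 2-fold rule left 1444 and 438 with shGas41-1, 728 and 160 with shGas41-2, and in EBs 3030 and 2696 of 5584 and 5195. Without 1 library the calls ranged from 962 to 2092 higher and 479 to 1756 lower with shGas41-1, from 283 to 2198 and 23 to 1933 with shGas41-2, and from 2778 to 5537 and 2288 to 5384 in EBs. For levels per length, the longest transcript moved 19 of 45 group means by more than 1 SD, and library totals moved 11 of 45.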
